A study of Mus musculus with 6 samples.

Results

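The 5S rRNA gene cluster of the mouse is a row of near-identical gene copies on chromosome 8. It was taken here as every gene of biotype rRNA in the GENCODE M21 annotation of GRCm38 that lies between positions 123538786 and 123623745 of chromosome 8, which gave 51 of the 47729 genes in the count files. The RNA came from extracellular vesicles (EVs) that a mouse B cell lymphoma line, WEHI-231, had released. The cells were stimulated for 1 h with 10 µg/mL of the rat anti-mouse CD24 antibody M1/69 or with a matched isotype antibody, in each case with 5 µg/mL of an anti-rat secondary antibody, raised in donkey per the labels and in goat per the methods. There were 3 samples per group, the EVs were captured with the Vn96 peptide, and the RNA was neither fragmented nor depleted of rRNA. Every isotype library carried barcode 1 and every anti-CD24 library barcode 2, so barcode and condition cannot be told apart, and the run names on the deposited files are the same for libraries of one replicate number.

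5S rRNA is the smallest RNA of the large ribosomal subunit. RNA polymerase III makes it from tandem gene copies whose promoter lies inside the transcribed sequence, where the factor TFIIIA binds. Before it enters the ribosome it is held by the ribosomal proteins Rpl5 and Rpl11, and outside the ribosome this particle can bind Mdm2, the ligase that keeps p53 low. The 5.8S rRNA belongs to the same subunit but is cut from the long precursor made by RNA polymerase I.

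All 51 copies lay on the minus strand within 84960 bases, and neighbouring starts were 1665 to 1727 bases apart (median 1697.5). They held 11 different sequences in the GENCODE M21 transcripts. One sequence of 119 bases, called the common sequence here, was that of 32 copies, and the other 19 copies differed from it by substituted or missing bases. RefSeq lists 48 of the 51 as rRNA genes and 3, n-R5s127, Gm24089 and Gm23647, as pseudogenes. Copies are described here by how many bases differ from the common sequence and by which changes they share.

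The changes fell into a few families. n-R5s112, n-R5s120 and n-R5s125 share 1 substitution and have no other, and n-R5s109 carries it with 2 more. n-R5s106, n-R5s118, n-R5s130 and Gm24312 share another single substitution. A block of 3 substitutions is carried by 7 copies, alone in n-R5s102, with 1 more in n-R5s101 and n-R5s129, and with 2 more in n-R5s114, n-R5s119 and n-R5s131. n-R5s127 has the block as well and differs most among the full-length copies, with 8 substitutions. Gm24089 and Gm23647 are 109 bases long and lack 10 bases.

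The libraries held 166129 to 794185 counts on genes each, so 3 counts were between 0.000378% and 0.00181% of a library. B cell markers were scarce, with 8 of 9 genes counted at all and sums of 0 to 10 per isotype sample and 6 to 13 per anti-CD24 sample. Ighm, the heavy chain of the IgM receptor, had the highest total. No T cell marker had a count, and 3 of 4 myeloid markers had sums of 0 to 4. Anti-CD24 replicate 1 stood apart, since it held all 99 counts of the 4 haemoglobin genes on the erythroid list, while the other 5 libraries had 0. Comparisons between the conditions are therefore also given without that library, and whether its haemoglobin RNA bears on the results was not tested.

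All 51 copies were counted in every sample, but they gave only 25 different sets of 6 counts. The largest set of identical counts held 19 copies, with n-R5s103 as the first by position. Each of the 19 had 2297, 885 and 4048 counts in isotype replicates 1, 2 and 3, and 3306, 9867 and 10327 counts in anti-CD24 replicates 1, 2 and 3. Anti-CD24 replicates 2 and 3 were thus above all other libraries, and anti-CD24 replicate 1 lay within the isotype range. All 19 copies had the common sequence. They were spread along the cluster, with 9 among the first 25 copies by position and 10 among the other 26. The files list 0 reads as aligned to more than 1 place, while the aligner was run so that all best hits of a read were written. By the annotated gene sequence alone, reads of copies with one sequence cannot be told apart, although some copies of the common sequence had other counts, as given below. How many reads were counted at more than 1 copy was not tested.

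**Figure D1:**
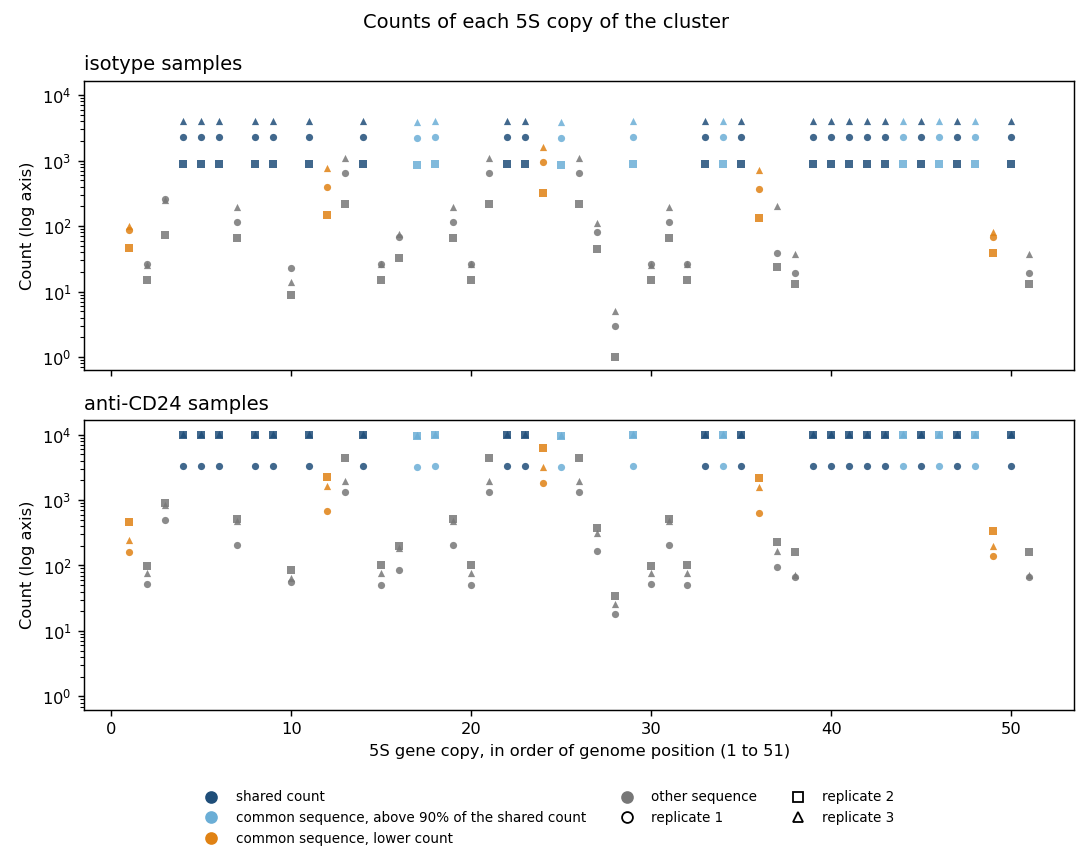
Counts (log axis) of the 51 5S copies in genome order, with the isotype samples above and the anti-CD24 samples below, 1 symbol per replicate and colours for the 4 classes of copies. The 19 copies of the shared count form flat lines at 2297, 885 and 4048 counts in the isotype samples and at 3306, 9867 and 10327 counts in the anti-CD24 samples, and 49 of the 51 copies have 10 or more counts in every sample.

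The 32 copies of the common sequence did not all have the shared count, although their gene bodies cannot be told apart. Of the other 13, 8 were close to it, at 94.5% to 100% of the shared count in every sample. These were Gm25018, n-R5s117, n-R5s124, n-R5s128, n-R5s133, n-R5s143, Gm25212 and Gm22291. n-R5s133 missed the shared count by 1 in isotype replicate 2 and in anti-CD24 replicate 3 and equalled it in the other 4 samples. Gm25018 and n-R5s124, which had identical counts, were the lowest of the 8, with 2211, 863 and 3830 counts in the isotype samples and 3210, 9589 and 9754 in the anti-CD24 samples. The level of 90% that separates these copies from the rest was chosen after the counts were seen.

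The remaining 5 copies of the common sequence lay far lower, at 1.94% to 62.0% of the shared count. n-R5s123 was the highest of them, with 942, 320 and 1629 counts in the isotype samples and 1798, 6122 and 3246 in the anti-CD24 samples. That was 44.2% ± 11.6 (SD, n = 6) of the shared count. n-R5s111 (397, 146 and 766, then 674, 2239 and 1609 counts) reached 18.6% ± 2.7 of it. Rn5s, the copy that carries the general name of the 5S gene, had 374, 131 and 727, then 638, 2150 and 1552 counts, or 17.5% ± 2.7 of it. n-R5s111 and Rn5s were nearly alike, since Rn5s had 89.7% to 96.5% of the counts of n-R5s111 in every sample. n-R5s100, the first copy of the cluster, was at 3.92% ± 1.26 (87, 47 and 99, then 160, 467 and 248 counts). Gm23284, the 49th copy by position, was at 3.15% ± 1.05 (69, 39 and 81, then 138, 334 and 200 counts). Between these 5 and the shared copies the annotated gene sequence is the same. The bases around each copy are not in the reference used here, and their part in these counts was not tested.

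Copies of another sequence were lower still for the most part. The 19 copies formed 12 sets of counts whose mean level ran from 0.251% to 30.4% of the shared count, with a median of 2.48% over the copies. The highest were those of the first family with 1 substitution. n-R5s112 had 641, 220 and 1095 counts in the isotype samples and 1308, 4364 and 1954 in the anti-CD24 samples, and n-R5s120 and n-R5s125 (639, 220 and 1099, then 1308, 4377 and 1951 counts) followed it closely, with n-R5s112 at 99.6% to 100.3% of n-R5s120. With 30.4% ± 9.5 of the shared count, these copies with 1 substitution stood above 4 of the 5 low copies with none. n-R5s112 and n-R5s123, which differ in that base, kept a narrow ratio to each other, 60.2% to 72.7% over the 6 samples. Against the shared count both were highest in anti-CD24 replicate 2 (44.2% and 62.0%) and lowest in anti-CD24 replicate 3 (18.9% and 31.4%).

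The second family with a single substitution had lower counts than the first. n-R5s106, n-R5s118 and n-R5s130 had identical counts of 117, 65 and 196 in the isotype samples and 205, 518 and 486 in the anti-CD24 samples, which was 5.57% ± 1.02 of the shared count. Gm24312 has the same sequence but other counts, 168, 376 and 312 in the anti-CD24 samples, and stood at 56.6% to 82.0% of n-R5s106. n-R5s136, with a single change of its own, had 39, 24 and 203, then 94, 225 and 167 counts. Its level was 5.01% of the shared count in isotype replicate 3 and 1.62% to 2.84% in the other 5 samples, so among the 17 sets of counts below 90% of the shared count it was the only one with isotype replicate 3 highest. n-R5s115, with 2 substitutions, was at 2.48% ± 0.75 (67, 33 and 75, then 85, 200 and 187 counts).

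The block of 3 substitutions was found in copies of very different levels. n-R5s102, which has only this block, had 258, 73 and 250 counts in the isotype samples and 488, 913 and 829 in the anti-CD24 samples, 9.62% ± 3.01 of the shared count. With 1 more substitution, n-R5s101 and n-R5s129 had 26, 15 and 25, then 52, 98 and 78 counts. With 2 more, n-R5s114, n-R5s119 and n-R5s131 had 26, 15 and 26, then 50, 100 and 77 counts. The sequences of these last 2 sets differ only at the first base, and n-R5s101 had 96.2% to 104% of the counts of n-R5s114. n-R5s102 had 487% to 1063% of the counts of n-R5s101 while differing from it at 1 base near the 5′ end.

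At the low end were n-R5s109, the shortened copies and n-R5s127. n-R5s109, with 3 substitutions, had 23, 9 and 14 counts in the isotype samples and 55, 85 and 65 in the anti-CD24 samples, or 0.920% ± 0.444 of the shared count. The shortened Gm24089 and Gm23647 had 19, 13 and 38, then 66, 163 and 72 counts each. n-R5s127 had 3, 1 and 5 counts in the isotype samples and 18, 34 and 26 in the anti-CD24 samples, 0.251% ± 0.170 of the shared count. Its percent of the shared count was 0.113% to 0.131% in the isotype samples and 0.252% to 0.544% in the anti-CD24 samples. It was the only one of the 24 other sets of counts in which this percent did not overlap between the groups, also without anti-CD24 replicate 1, and it rests on counts of 1 to 5 in the isotype samples. The share of all genes tested without overlap on this scale was not computed. Whether 1 of 24 sets is more or fewer than among other genes is thus not known, and the lack of overlap is a description only.

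**Figure D2:**
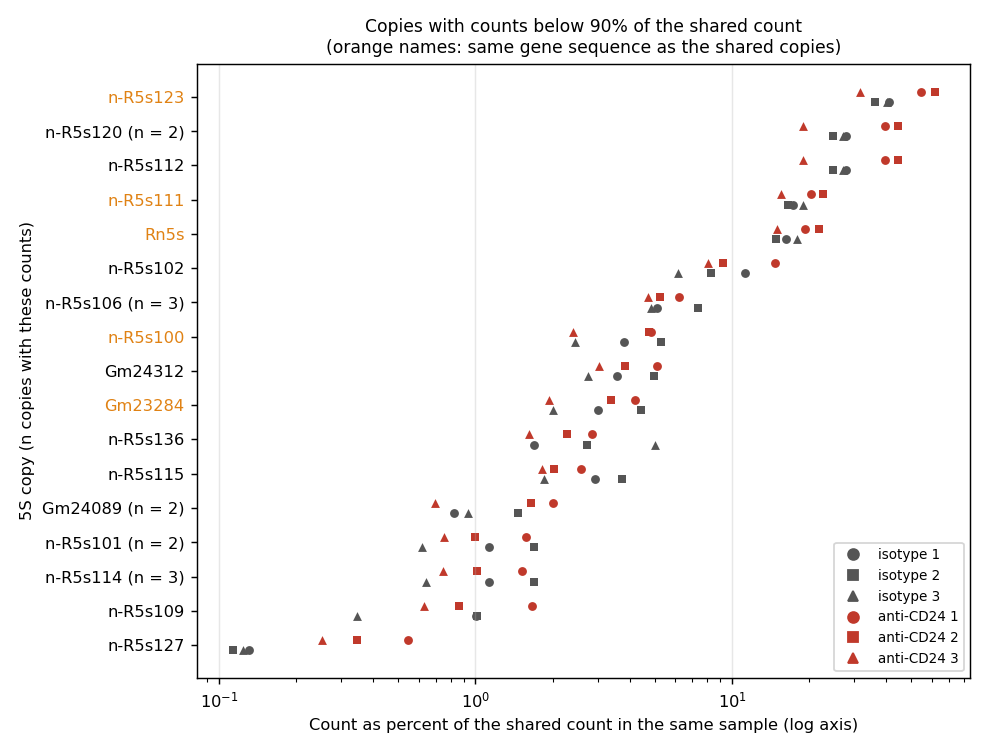
Percent of the shared count (log axis) in each of the 6 samples for the 17 sets of counts below 90% of it, 1 row per set, grey for isotype and red for anti-CD24. Orange names have the common sequence and span 1.94% to 62.0%, and only n-R5s127 has all anti-CD24 points to the right of all isotype points.

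Over the 25 sets of counts, the number of differing bases and the mean percent of the shared count had a Spearman rho of -0.79, and over the 12 sets of other sequences a rho of -0.75. These are descriptions across gene copies that share the same libraries and may share reads. Copies with 1 differing base spanned 2.69% to 30.4%, so the number of differing bases alone did not set the order. Within a set the level also moved between samples. For the 17 sets below 90%, the highest percent of the shared count was 1.46 to 4.82 times the lowest over the 6 samples (median 2.34).

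**Figure D3:**
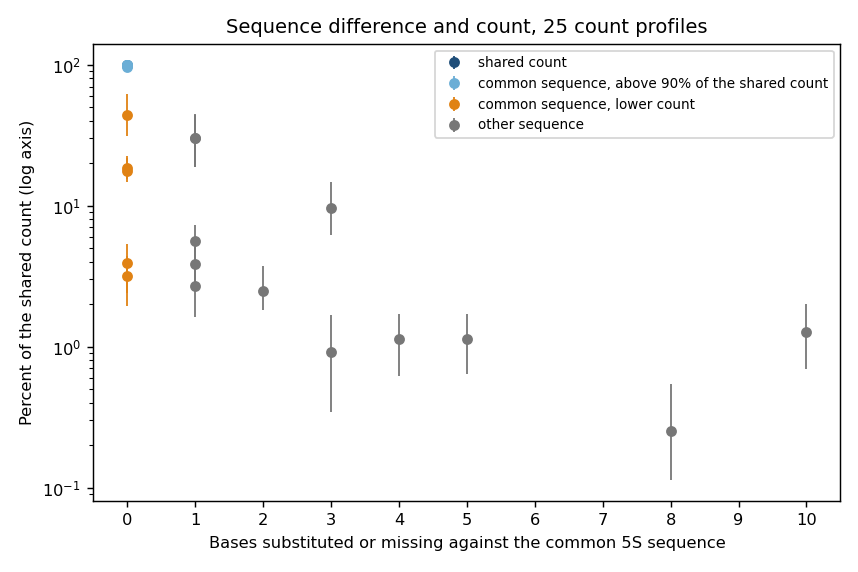
Mean percent of the shared count (log axis, bars from the lowest to the highest of the 6 samples) against the number of bases substituted or missing, for 25 sets of counts. Copies with 0 differing bases lie between 3.15% and 100%, and the copy with 8 lies lowest at 0.251%.

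The 4 classes of copies took very unequal parts of the cluster. The 19 copies of the shared count held 65.5%, 65.6% and 65.8% of the cluster's counts in the isotype samples and 63.9%, 63.7% and 66.8% in the anti-CD24 samples. The groups overlapped, and the means were 65.6% ± 0.2 and 64.8% ± 1.7 (SD, n = 3). The 8 copies close to the shared count held 26.6% to 27.7%, the 5 low copies of the common sequence 2.33% to 3.84%, and the 19 copies of another sequence 3.21% to 5.94%. Anti-CD24 replicates 1 and 2 were above the isotype samples and anti-CD24 replicate 3 below them in both of the last 2 classes. The steadiness of the first 2 classes follows from their construction, as they hold 19 identical and 8 near-identical counts. The sum over the 51 copies was 28.5 to 29.8 times the count of the highest copy, so a share of 5S rRNA that sums copies is far above the share of any single copy.

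To compare the conditions without a sum over copies in the numerator, 1 copy with the shared count was used. It was 0.712%, 0.533% and 0.530% of the gene counts in isotype replicates 1, 2 and 3. In anti-CD24 replicates 1, 2 and 3 it was 0.542%, 1.34% and 1.30%. The 95% Wilson intervals of these shares were narrow, from 0.499% to 0.569% in the shallowest library, isotype replicate 2, and cover counting error only. They take each gene count as a separate read, which does not hold where a read was counted at more than 1 copy. Anti-CD24 replicates 2 and 3 lay above every isotype sample, and anti-CD24 replicate 1 lay among them. The means were 0.592% ± 0.105 and 1.06% ± 0.45 (SD, n = 3), a difference of 0.469 percentage points with a standard error of 0.267 (exact permutation test, two-sided, p = 0.2, adjusted p = 0.3 over 3 tests). The smallest p that 3 against 3 samples allow is 0.1. In pairs of the same replicate number it differed by -0.171, 0.807 and 0.770 percentage points, which an exact sign-flip test did not separate from 0 (p = 0.5, with 0.25 as the smallest possible). Without anti-CD24 replicate 1 the difference was 0.728 percentage points, at the smallest p this test then allows (exact permutation test, p = 0.1). The gene counts used as denominator for these shares, and for CPM below, still include all 51 copies. With only the highest copy, which has the shared count, kept in the denominator, the means were 0.713% in the isotype and 1.62% in the anti-CD24 samples.

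Relative to 5.8S rRNA, counted on n-R5-8s1, the shared copy showed the same order of samples. There were 99.1, 141 and 143 counts of 5.8S per shared 5S count in the isotype samples and 135, 33.3 and 40.5 in the anti-CD24 samples. On the log2 scale with 0.5 added to both counts, the ratio of 5S to 5.8S was -6.97 ± 0.30 in the isotype and -5.83 ± 1.09 in the anti-CD24 samples. The difference of 1.15 (SE 0.65) did not pass (exact permutation test, p = 0.2, adjusted p = 0.3), and the pairs gave -0.45, 2.08 and 1.82. Without anti-CD24 replicate 1 the difference was 1.77 (p = 0.1 by the exact permutation test, again its minimum). The share of 5.8S itself was 73.7% ± 2.7 (SD, n = 3) of the gene counts in the isotype samples. It was 73.2%, 44.7% and 52.7% in anti-CD24 replicates 1, 2 and 3, thus lower in replicates 2 and 3. These gene counts include every copy of the cluster, which summed to 16.1%, 40.0% and 37.0% of them in the same anti-CD24 samples. In the isotype samples the sum was 20.7%, 15.4% and 15.3%. A higher sum lowers the 5.8S share by itself, and the 5.8S share with only 1 copy kept was not computed. Per 100 counts outside the rRNA and ribozyme genes, the shared copy had 8.26, 5.66 and 5.87 counts in the isotype and 5.12, 8.81 and 12.7 in the anti-CD24 samples, so the groups overlapped on this scale too, and did so only through anti-CD24 replicate 1. More 5S RNA and less of the other RNAs cannot be told apart in such shares.

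**Figure D4:**
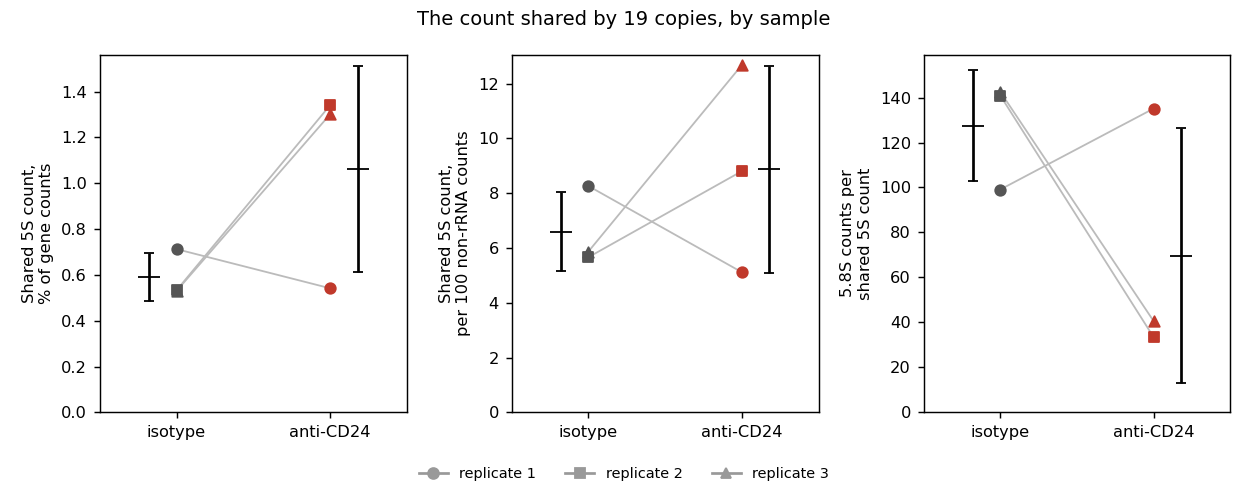
The count shared by 19 copies in each sample as percent of gene counts, per 100 non-rRNA counts, and as 5.8S counts per shared count, with lines joining samples of one replicate number and bars for mean ± SD (n = 3). In all 3 panels the line of replicate 1 runs the other way from those of replicates 2 and 3, with anti-CD24 samples at 0.542% against 1.34% and 1.30% of the gene counts.

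The copy with a distinct count and the highest total, n-R5s133, followed the shared copy to within 1 count. Their log2 ratio differed between the conditions by 0.0005 (exact permutation test, p = 1). With counts this close, the outcome of that test was fixed beforehand, and it adds nothing to the values of the shared copy. Summed over the 51 copies, the cluster held 20.7%, 15.4% and 15.3% of the gene counts in the isotype samples and 16.1%, 40.0% and 37.0% in the anti-CD24 samples. The means were 17.1% ± 3.1 and 31.0% ± 13 (SD, n = 3), and with identical counts kept once the difference of 13.9 percentage points became 7.20.

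With edgeR's quasi-likelihood test and TMM normalization, 0 of the 51 copies passed an adjusted p of 0.05, where 0.0666% of the 1501 genes tested were called. DESeq2 also called 0 copies. Before adjustment, 1 copy, n-R5s127, was under 0.05 with edgeR and was higher in anti-CD24, against 7.99% of all genes in either direction and 4.26% in that direction. The fitted log2 fold change of anti-CD24 over isotype was above 0 for all 51 copies, as it was for 44.7% of the genes tested. Since 19 copies have one count and 14 more have counts of a small set, these are not 51 separate observations. Shares over the genes tested, here and below, include the copies of the cluster. The median over the copies was 1.28, against -0.29 over all genes tested. The shared copy had a log2 fold change of 1.28 (SE 0.76, adjusted p = 0.54 with edgeR). Values ran from 0.56 for n-R5s136 to 2.52 (SE 1.12) for n-R5s127, and adjusted p from 0.54 to 0.78.

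In CPM, each copy's count scaled to the total gene counts of its library, 7 of the 25 sets had all anti-CD24 samples above all isotype samples, where 5.73% of the genes tested did. No set had them all below, where 6.53% of the genes tested did. These were n-R5s109, n-R5s112, n-R5s120, n-R5s123, Gm24312, n-R5s127 and Gm24089, together 9 copies. The shared copy was not among them, nor were the copies close to it. n-R5s112 had 1988, 1324 and 1434 CPM in the isotype samples and 2143, 5926 and 2460 in the anti-CD24 samples. n-R5s109 had 71.3, 54.2 and 18.3, then 90.1, 115 and 81.8 CPM. In both copies the highest isotype sample, replicate 1, lay close below the lowest anti-CD24 sample. Without anti-CD24 replicate 1, 24 of the 25 sets had the remaining anti-CD24 samples above all isotype samples (9.86% of the genes tested), n-R5s136 being the exception. Without isotype replicate 1 it was 18 sets (10.4% of the genes tested). Over pairs of one replicate number, 10 sets had higher CPM after anti-CD24 in 3 of 3 pairs, where 9.86% of the genes tested did, and all 25 in 2 or more, where 42.5% did.

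Anti-CD24 replicate 1 decided this comparison. Without it, 34 copies in 14 sets of counts passed, all of them higher in anti-CD24, with a lowest adjusted p of 0.0056 (edgeR), where 4.2% of the 1119 genes then tested were called higher. The 47 genes called higher there include these 34 copies. The shared copy then had a log2 fold change of 1.81 and Gm25018 1.80. Leaving out any other library gave 0 copies. Anti-CD24 replicate 1 was the only anti-CD24 sample within the isotype range for the shared copy's share. Leaving it out therefore sets the groups apart by itself, and the adjusted p of that fit is a description only. Scaling also moved the values. With TMM factors computed without the rRNA and ribozyme genes the median over the copies was 1.70, and 43 copies had an unadjusted p under 0.05 (11.7% of all genes, these copies included, higher direction), although 0 passed after adjustment (lowest adjusted p = 0.29, edgeR). Among the 134 genes with at least 10 counts in every sample, where 49 were copies of the cluster, the median over the copies was 0.01 and 39 of the 49 were above 0. The median over all 134 was also 0.01, and over those outside the cluster it was -0.12. With 49 copies among the 134 genes, neither the overall median nor the TMM factors of this setting are separate from the copies.

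**Figure D5:**
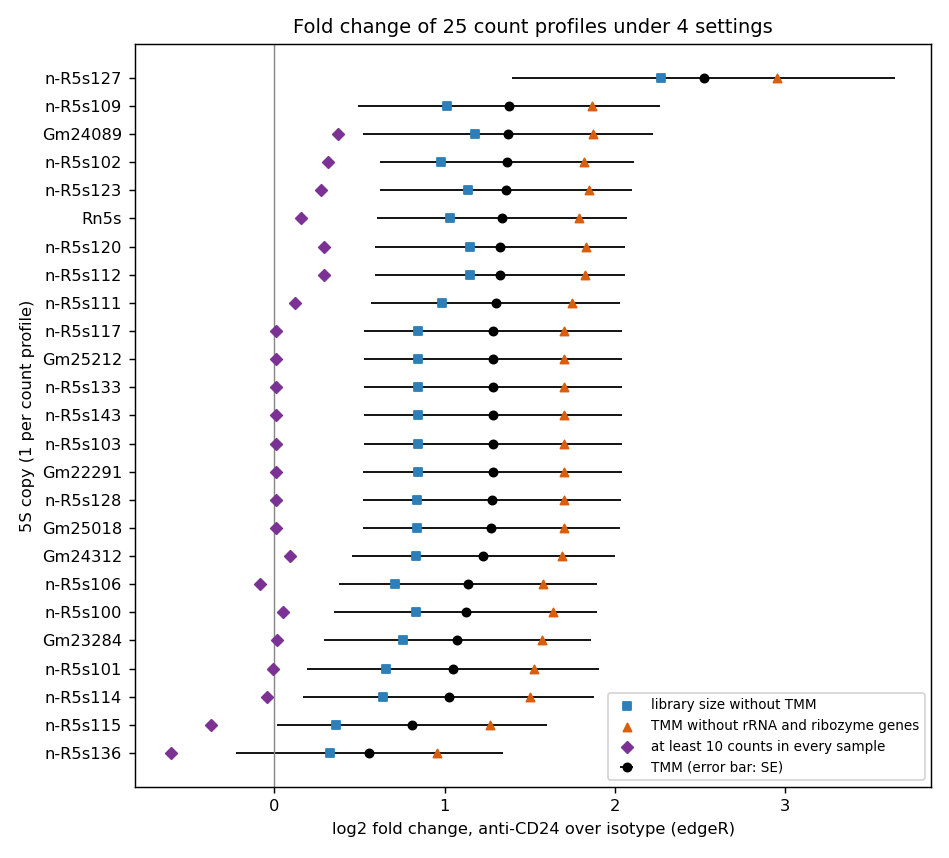
log2 fold change of anti-CD24 over isotype (edgeR) for the 25 sets of counts, with black points and SE bars for TMM and coloured points for 3 other settings. Under TMM every value lies between 0.56 and 2.52, and with at least 10 counts in every sample n-R5s101, n-R5s106, n-R5s114, n-R5s115 and n-R5s136 lie below 0.

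Genes of 5S name and sequence outside the cluster added little. Among 303 rRNA genes elsewhere in the genome, 51 had sequences within 24 edits of the common sequence, none with fewer than 4, and 29 of them had a count. Summed, they had at least 46 and at most 451 counts per sample, below the count of 1 shared copy in every sample. The highest, n-R5s194 on chromosome 3 (4338998 to 4339116, plus strand), had 26, 9 and 45, then 97, 161 and 77 counts, and differs from the common sequence by 5 edits. n-R5s33 (13, 10 and 27, then 26, 69 and 43 counts) and n-R5s2 (10, 9 and 22, then 23, 51 and 34 counts) differ by 4. n-R5s151 and n-R5s56 had at most 37 and 27 counts. Of these genes, only n-R5s194, n-R5s33 and n-R5s2 had totals (415, 188 and 149) above that of the lowest cluster copy, n-R5s127 (87). Copies of the cluster differ from the common sequence by at most 10 edits, and n-R5s56 differs by 24.

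Messenger RNAs of the proteins that make or bind 5S rRNA were at the edge of detection. Of 6 genes for the 5S particle and its assembly, 4 had a count, with sums of 1 to 8 per isotype and 0 to 6 per anti-CD24 sample. Rpl5 had 0, 0 and 5, then 3, 0 and 0 counts, and Rpl11 had 0, 1 and 0, then 1, 2 and 0. Of 3 genes for proteins that bind 5S or other polymerase III transcripts, Gtf3a (TFIIIA), Ssb and Trove2, none had a count. Of 23 genes for RNA polymerase III and its factors, 7 had a count, with sums of 0 to 6 and 2 to 4. Only 3 genes of these lists (Rpl11, Mdm2 and Gtf3c1) reached the test and 0 passed (edgeR; adjusted p = 0.87, 0.54 and 0.96). A difference in these mRNAs was not detectable at this depth.

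Among 1423 other genes that passed the filter, the pattern of log2 CPM over the 6 samples was most like that of the shared copy for Gm24187, a miRNA gene (Pearson r = 0.89), with 886, 524 and 1539, then 1941, 4002 and 5551 counts. The mitochondrial tRNA gene mt-Tv (358, 143 and 236, then 302, 3148 and 1218 counts) and the pseudogene Gm28439 (13, 9 and 16, then 13, 87 and 71 counts) had r = 0.87. Gm22003 (r = 0.87) and Rps23 (r = 0.86) had at most 4 counts. The 6 points share the library totals, and these values are descriptions.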

How the data were processed

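RNA of EVs from 3 isotype and 3 anti-CD24 samples of WEHI-231 cells was read on an IonTorrent PGM. Trimming by the authors used the FASTX toolkit and alignment used tmap (output filter 2, all best hits), and they deposited raw counts per gene from htseq-count (HTSeq 0.5.4p5 per the labels), union mode, strand-specific, on exons of Ensembl GRCm38. The methods and the submitters' processing notes name different patch releases. The 5 summary lines per file were left out. Same-numbered samples shared a run by the run names on the deposited files, but their deviations from the group means did not go together (r = -0.030, -0.024 and -0.106 over 1501 genes).

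Members and lists were chosen with earlier results of these data known. Some items are not reported here. Sequences and positions came from GENCODE M21 (GRCm38), and RefSeq GRCm38 gave entry types. Copies were grouped by identical counts in all 6 samples. Their differences to the common sequence were read base by base, or as 1 run of missing bases in the shortened copies. Edits of the rRNA genes elsewhere are edit distances to the common sequence. One copy of each set (lowest start), each distinct copy with 10 or more counts in a sample, n-R5-8s1, the 5 highest 5S genes elsewhere and the 5 genes most alike over the samples (Pearson r of log2 CPM plus 1) were named.

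Genes with at least 1 CPM in 3 samples were tested with edgeR 4.0.16 (R 4.3.3, quasi-likelihood, TMM, Benjamini-Hochberg at 0.05). The package and the filter are those of the study, whose methods do not name the form of the test. Single values had two-sided exact permutation tests. The alternatives were DESeq2 1.42.0, library size, TMM without rRNA and ribozyme genes, other filters, identical counts kept once, other denominators, references and pseudocounts, a replicate block and each sample left out. Other steps used Python 3.11.15, numpy 2.4.6, pandas 2.3.3 and scipy 1.17.1. Libraries held 166129 to 794185 gene counts, and Wilson intervals cover counting error only, with each gene count taken as a separate read. The samples are biological replicates per the paper, but p-values measure only the spread between them.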

Additional observations from a re-analysis of the deposited data

How the results depend on the processing

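The differences in the shared copy's share and in its ratio to 5.8S kept their direction under all alternatives run, and neither passed the threshold under any, which tests of 3 against 3 samples could not reach. The summed share of the cluster depends on how copies are counted, and its difference of 13.9 percentage points became 0.903 with the highest copy only. Leaving out each sample in turn gave 0.329 to 0.728 percentage points for the shared copy's share, 0.77 to 1.77 for its log2 ratio to 5.8S, 9.41 to 21.3 percentage points for the summed share, -1.82 to -0.277 percentage points for the part of the cluster on the 19 copies, -4.66e-05 to 0.000769 for the log2 ratio of n-R5s133 to the shared copy (reversed without isotype replicate 2), and 0 to 34 copies called (34 without anti-CD24 replicate 1). In the same way, chosen after seeing the data, 7 to 24 sets of counts had higher CPM in every anti-CD24 sample, and 1 to 7 sets had a percent of the shared count that did not overlap, with 7 without anti-CD24 replicate 3, 3 without isotype replicate 2 and 2 without isotype replicate 3. n-R5s127 was among them each time. The share of all genes tested without overlap in this percent was not computed, so these numbers of sets are descriptions only. With the replicate number as a block, edgeR called 0 copies, the median over the copies was 1.02 and the lowest adjusted p 0.99. The block changed no call on the cluster, while over all 1501 genes tested 1 was called without it and 0 with it. The log2 fold change of n-R5s136 turned to -0.10 with DESeq2 and ran from -0.15 to 0.99 with each sample left out. With at least 10 counts in every sample, the values were -0.0104 for n-R5s101, -0.082 for n-R5s106, -0.045 for n-R5s114, -0.37 for n-R5s115 and -0.61 for n-R5s136. Of the 134 genes tested there, 49 were copies of the cluster. Relative to edgeR with TMM, the median over all genes shifted by -0.68 with DESeq2, 0.44 with TMM without rRNA and ribozyme genes and 0.30 with at least 10 counts in every sample, and DESeq2 left 50 of 51 copies above 0 with a median of 0.63. Library size without TMM gave a median of 0.84, no filter 1.24 and identical counts kept once 1.00. Depth limits the copies with the fewest counts, as n-R5s127 had 1 to 5 counts per isotype sample.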
